A study of Mus musculus with 6 samples.

Results

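Allele use and expression were followed for 5 X-linked genes, Pbdc1, 5530601H04Rik, 1810030O07Rik, Syap1 and Shroom4, in differentiating female mouse embryonic stem cells. The genes were chosen by name, as genes reported to escape X inactivation in some mouse tissues, with earlier results of these data known, though the rule itself uses no measured value. They were 5 of the 372 genes in the deposited tables, and all 5 passed the filters on low values. All libraries came from the cell line 16.7 TST with the genotype label WT, and the labels do not explain TST. Day 0 cells were undifferentiated and grew with LIF, a factor that holds stem cells undifferentiated, on irradiated mouse embryonic fibroblast feeders. Day 4 and day 7 cells had been separated from the feeders and differentiated as embryoid bodies without LIF, which were plated on gelatin at day 4. Each day had 2 libraries (n = 2 for every mean ± SD), and the labels do not say whether these were separate cultures. Each p-value therefore weighs a difference against the spread of these libraries alone, which may be technical.

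In female mammals 1 of the X chromosomes is silenced early in development, after the noncoding RNA Xist spreads along it. Most genes on it are then read from the active X alone, but a minority, called escape genes, go on being transcribed from the inactive X. In mouse this group is small and differs between tissues. The cells carried distinguishable X chromosomes, named cas and mus in the tables, and the headers of the deposited fractions mark cas as the active and mus as the inactive X (Xa and Xi). The mus share, the percent of allele-specific reads that came from the mus allele, therefore gives how much of a gene's allele-specific RNA came from the X marked as inactive.

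Of the 5 genes, Pbdc1 encodes polysaccharide biosynthesis domain containing 1, whose relative in yeast assists the folding of a translation elongation factor. 5530601H04Rik is annotated as a noncoding processed transcript, and 1810030O07Rik as a protein-coding gene. Syap1 encodes synapse-associated protein 1, named after a synaptic protein of Drosophila. Shroom4 encodes a member of the Shroom family of actin-binding proteins, which shape cells through actin and myosin. In the GENCODE M21 annotation of GRCm38, Pbdc1 lay on the plus strand at chrX:105079756-105117090 and 5530601H04Rik on the minus strand at chrX:105037197-105079609, so that they pointed away from each other with 146 bases between them. Both were within 1.6 Mb of Xist. 1810030O07Rik lay on the minus strand at chrX:12654879-12673668, Syap1 on the minus strand at chrX:162857057-162888447 and Shroom4 on the plus strand at chrX:6399854-6637448. None of the 5 shared exon bases with another annotated gene.

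Promoter windows from RefSeq (build GRCm38.p6) were found for 4 of the 5 genes. The window of Pbdc1, chrX:105079506-105079805 on the plus strand, is shown because it holds both annotated GENCODE starts of the divergent pair, that of 5530601H04Rik at its base 104 and that of Pbdc1 at its base 251. The windows of 1810030O07Rik, chrX:12673590-12673889 on the minus strand, and of Shroom4, chrX:6399782-6400081 on the plus strand, are shown because these genes had the highest and the lowest day 7 mus share of the 5. Capitals mark CG dinucleotides, the sites of DNA methylation.
Pbdc1: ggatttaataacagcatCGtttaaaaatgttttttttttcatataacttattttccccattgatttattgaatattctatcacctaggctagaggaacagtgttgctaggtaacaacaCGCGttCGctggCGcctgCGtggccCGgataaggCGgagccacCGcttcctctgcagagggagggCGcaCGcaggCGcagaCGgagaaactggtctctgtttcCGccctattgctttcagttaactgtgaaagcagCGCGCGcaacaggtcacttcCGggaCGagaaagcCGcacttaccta
1810030O07Rik: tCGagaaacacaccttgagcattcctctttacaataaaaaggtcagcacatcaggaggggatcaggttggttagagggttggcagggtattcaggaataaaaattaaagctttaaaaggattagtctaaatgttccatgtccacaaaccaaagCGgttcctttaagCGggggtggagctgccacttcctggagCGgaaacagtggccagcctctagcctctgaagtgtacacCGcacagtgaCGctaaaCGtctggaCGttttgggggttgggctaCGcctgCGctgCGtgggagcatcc
Shroom4: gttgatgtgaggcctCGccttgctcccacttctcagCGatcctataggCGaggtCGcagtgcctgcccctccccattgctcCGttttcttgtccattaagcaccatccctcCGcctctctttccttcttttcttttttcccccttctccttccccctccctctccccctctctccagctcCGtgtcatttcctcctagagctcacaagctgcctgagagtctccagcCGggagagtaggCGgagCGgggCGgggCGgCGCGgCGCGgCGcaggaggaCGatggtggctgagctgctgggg
The window of Pbdc1 held 20 CG, that of Shroom4 18 and that of 1810030O07Rik 11, against a median of 15 in the 411 windows of the measured genes and of 7 in all 32851 windows. In the windows shown the number of CG did not follow the order of the day 7 mus shares, since 1810030O07Rik had the highest share and the fewest CG. Any relation of CG number to mus share was not tested. RefSeq placed the start of 5530601H04Rik inside the GENCODE gene, with a window at chrX:105070075-105070374 that held 11 CG. A form of the motif of YY1, AANATGGCG, and a form of the motif of CTCF were searched on both strands, and with no match there was no overlap between them. Neither was found in any of the 6 windows of the 4 genes, which says only that these letters are not there. The YY1 form was present in 5.84% of the windows of measured genes and in 2.38% of all windows, and the CTCF form in 2.43% of each.

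Summed allele-specific reads ran from 69742 to 160218.5 per library, and the median gene had a mus share of 48.1% and 48.2% before differentiation, of 19.7% and 19.9% on day 4 and of 4.08% and 4.61% on day 7. Xist expression was 11.3 ± 0.573 TPM before differentiation, 103 ± 7.45 on day 4 and 58.6 ± 1.06 on day 7. The stem cell label could be checked only on X-linked genes, since 0 of 5 autosomal stem cell markers looked for were in the tables. Summed expression of 10 X-linked pluripotency or early embryo genes was 1765 to 1768 TPM in the day 0 libraries, 592 to 608 at day 4 and 599 to 604 at day 7. The level sum after day 4 hid opposite courses. Mean TPM of Nr0b1, Eras, Tfe3, Tex11, Rhox6, Rhox9 and Xlr3a fell, for Eras from 83.6 to 6.59. That of Dusp9, Morc4 and Zfp185 rose, for Dusp9 from 145 to 278. Of 9 X-linked fibroblast and matrix genes 8 were measured, with summed expression of 1114 to 1126 TPM at day 0, 821 to 862 at day 4 and 1037 to 1049 at day 7. Here too members differed. From day 0 to day 7 mean TPM fell for Bgn, Timp1 and Plp2 and rose for Col4a5, Col4a6, Fhl1, Flna and Msn. On days 0, 4 and 7 Bgn had 90.8, 1.89 and 27.7 TPM, Timp1 185, 44.7 and 58.8, and Col4a6 0.453, 8.24 and 78.2. At day 0, where cells grew on feeders, 7 of the 8 measured fibroblast and matrix genes had mus shares above 50%. These ran from 53.1% for Msn and 54.0% for Flna up to 99.9% for the matrix gene Bgn. Many other genes lay above 50% as well, since Pbdc1, at 50.1% in day 0 replicate 1, was place 142 of 369 from the highest.

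Before differentiation, 3 of the 5 genes were read more from the mus than from the cas allele and the other two were near an equal share. 1810030O07Rik had 72.9% and 69.5% mus reads in the day 0 libraries, among 256.5 and 306.5 reads. Shroom4 had 62.0% and 65.1% among 173.5 and 175 reads, and Syap1 62.5% and 59.0% among 197.5 and 177 reads. In every one of these libraries the Wilson 95% interval, which covers counting error only, lay above 50%, the lowest bound being 51.7% for Syap1. Pbdc1 had 50.1% and 45.7% and 5530601H04Rik 52.1% and 47.7%, and their intervals included an equal share.

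In edgeR's quasi-likelihood model over all 372 genes, 3 of 5 genes had more mus than cas reads at day 0, a call made at 9.68% of all genes, and none had fewer, a call made at 19.4%. These shares of all genes depended on the settings, as 108 genes were called in all, against 40 in DESeq2, 48 without day 0 replicate 1 and 45 without day 0 replicate 2. The log2 odds of mus to cas reads were 1.29 ± 0.14 (SE) for 1810030O07Rik (adjusted p = 1.27e-17), 0.80 ± 0.16 for Shroom4 (8.82e-06) and 0.64 ± 0.17 for Syap1 (0.000908) in edgeR (p-values here and below adjusted by Benjamini-Hochberg over all genes), each higher in both libraries. The call of Syap1 was lost in DESeq2 (adjusted p = 0.120) and without day 0 replicate 1 (0.151), within a range of 0.000171 to 0.151 over its alternatives. For Pbdc1 and 5530601H04Rik the log2 odds were -0.12 ± 0.16 and 0.00 ± 0.20, with adjusted p of 0.641 and 1.0 in the same edgeR test. The same 3 genes lay above the median gene of their libraries at day 0, as 14.0% of all genes did, and none lay below it, where another 14.0% did. Against the median gene the call of Syap1 was lost without day 0 replicate 1 (adjusted p = 0.0951, edgeR), the highest over its alternatives, whose lowest was 4.77e-05. The mus-biased fibroblast genes given above move with day 0, and their part in these starting shares was not tested.

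**Figure D1:**
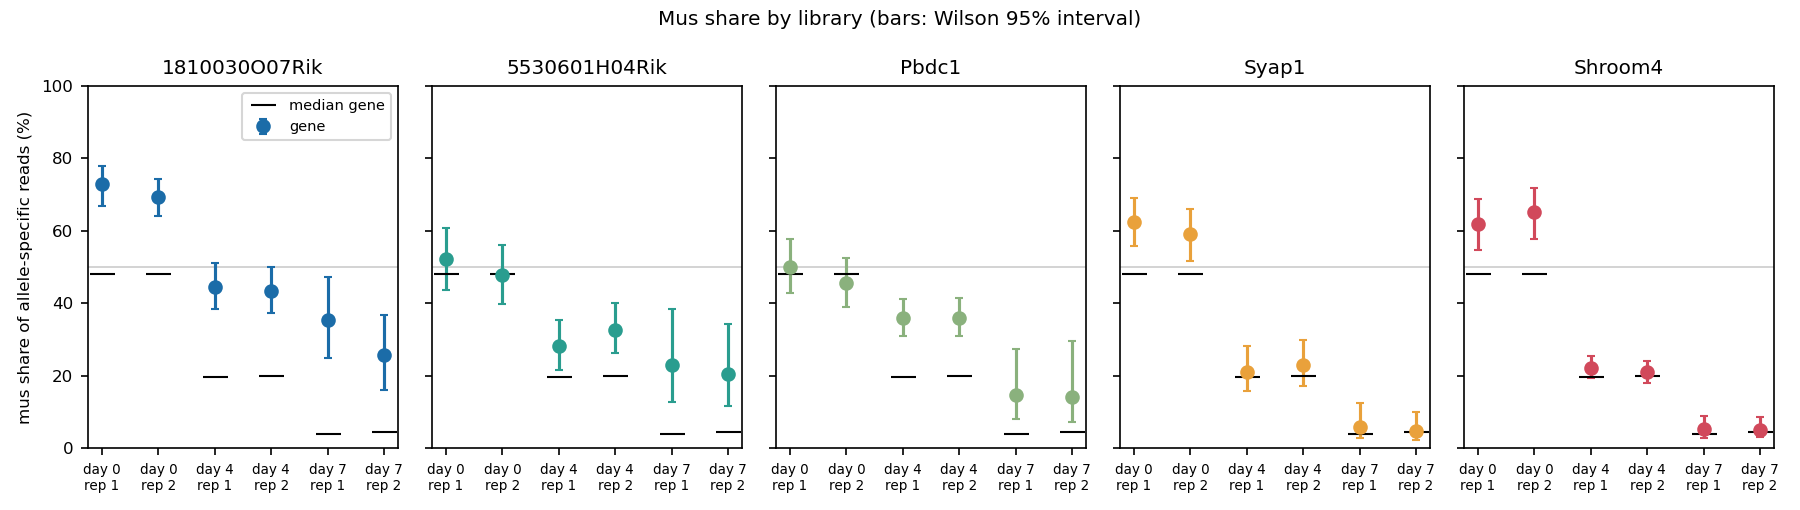
Mus share of allele-specific reads (percent, vertical axis) of each gene in the 6 libraries (horizontal axis). Points are libraries, bars are Wilson 95% intervals, black dashes mark the median gene of that library and the grey line marks 50%. All 5 genes fall from day 0 to day 7, but 1810030O07Rik, 5530601H04Rik and Pbdc1 lie above the dashes at day 4 and day 7, while Syap1 and Shroom4 come close to them.

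All 5 genes had a lower mus share on day 4 than on day 0, and by then 1810030O07Rik, Pbdc1 and 5530601H04Rik lay above the typical X-linked gene while Syap1 and Shroom4 were close to it. 1810030O07Rik had 44.6% and 43.4% mus reads in the day 4 libraries, Pbdc1 36.0% and 36.1%, and 5530601H04Rik 28.2% and 32.6%. Syap1 had 21.2% and 23.0%, and Shroom4 22.3% and 20.9%, close to the 19.7% and 19.9% of the median gene. For each of the 5 genes both day 4 libraries were below both day 0 libraries.

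The fall from day 0 passed the edgeR test at 5 of 5 genes, beside 87.9% of all genes, so the count itself does not set them apart, and no gene of the 5 rose (0.806% of all genes). Its size ranged from a log2 odds change of -0.70 ± 0.21 (SE) at Pbdc1 (adjusted p = 0.00108, edgeR) to -2.66 ± 0.19 at Shroom4 (6.35e-41). Over the 5 genes the median change was -1.62 and over all genes -1.81. Syap1, at -2.44 ± 0.26, and Shroom4 lay beyond that median, and Pbdc1 had the smallest fall of the 5.

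Set against the median gene of the same library, 3 of 5 genes had more mus reads at day 4, a call made at 33.1% of all genes, and none had fewer (30.1%). These were 1810030O07Rik, with a log2 odds of 1.68 ± 0.16 (SE) above the median gene, Pbdc1 with 1.19 ± 0.14 and 5530601H04Rik with 0.83 ± 0.20 (adjusted p = 3.82e-24, 1.42e-16 and 9.68e-05, edgeR). The call of 5530601H04Rik was lost without day 4 replicate 2, at adjusted p = 0.0732, the highest over its alternatives, the lowest being 2.55e-05. Syap1 and Shroom4 were at 0.21 ± 0.21 and 0.16 ± 0.10 and did not pass (adjusted p = 0.390 and 0.151 in the same edgeR test). 1810030O07Rik was already above the median gene at day 0, and its distance from it had not changed detectably by day 4, with a log2 difference of 0.29 ± 0.21 (adjusted p = 0.275, edgeR). Pbdc1 and 5530601H04Rik, by contrast, had moved up relative to the median gene by 1.21 ± 0.21 and 0.72 ± 0.28 (adjusted p = 1.65e-07 and 0.0262, edgeR), beside 22.8% of all genes. Shroom4 had moved down, by -0.75 ± 0.19 (adjusted p = 0.000432, edgeR), beside 18.0% of all genes. For Syap1 the value was -0.54 ± 0.27, which did not pass (adjusted p = 0.0915, edgeR).

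At day 7 the order from highest to lowest mus share was 1810030O07Rik, 5530601H04Rik, Pbdc1, Syap1 and Shroom4. 1810030O07Rik had 35.5% and 25.8% mus reads among 69 and 64 reads. 5530601H04Rik had 23.1% and 20.6% among 39 and 48.5 reads, and Pbdc1 14.7% and 14.3% among 51 and 38.5 reads. These 3 shares rest on few mus reads, between 5.5 for Pbdc1 in replicate 2 and 24.5 for 1810030O07Rik in replicate 1. Syap1 had 6.0% and 4.72% among 100 and 127 reads, and Shroom4 5.35% and 5.19% among 233.5 and 250.5 reads. Neighbours in this order had overlapping Wilson intervals, for example 8.01% to 27.5% for Pbdc1 and 2.78% to 12.5% for Syap1 in replicate 1. Such overlap is not a test of a difference, and differences between neighbours in the order were not tested. Pbdc1 was above Syap1 in both libraries, while Syap1 and Shroom4 changed places between the libraries. The ends of the order were apart, as the interval of 1810030O07Rik began at 25.0% and 16.0% and that of Shroom4 ended at 8.78% and 8.66%. By rank among the genes with reads, 1810030O07Rik was place 13 of 365 and 26 of 364, 5530601H04Rik 23 and 35, Pbdc1 42 and 55, Syap1 130 and 180, and Shroom4 139 and 161.

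All 5 genes had lost mus share since day 0 in the edgeR test, beside 89.8% of all genes, and none had gained it (0.538%). The losses again differed in size, with a log2 odds change of -1.83 ± 0.43 (SE) at 5530601H04Rik, -2.32 ± 0.42 at Pbdc1, -2.48 ± 0.31 at 1810030O07Rik, -4.79 ± 0.36 at Syap1 and -4.99 ± 0.27 at Shroom4. The median over all genes was -4.22 and over the 5 genes -2.48. The largest adjusted p was 3.0e-05, for 5530601H04Rik, in edgeR.

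Against the median gene of the library, 1810030O07Rik, 5530601H04Rik and Pbdc1 had more mus reads at day 7, 3 of 5 genes beside 21.5% of all genes, and none of the 5 had fewer (5.11% of all genes). Their log2 odds above the median gene were 3.26 ± 0.36 (SE), 2.61 ± 0.50 and 2.01 ± 0.53 (adjusted p = 7.36e-18, 1.46e-06 and 0.000865, edgeR), each higher in both libraries. For Pbdc1 the call was lost without day 7 replicate 1, with 1.91 ± 0.78 and adjusted p = 0.0664, and its other alternatives went down to 3.19e-05. Syap1 and Shroom4 were 0.29 ± 0.48 and 0.26 ± 0.32 above the median gene, which did not pass (adjusted p = 0.715 and 0.609, edgeR). The change from day 0 relative to the median gene passed for the same 3 genes, at 2.50 ± 0.52 for 5530601H04Rik, 2.03 ± 0.55 for Pbdc1 and 1.87 ± 0.36 for 1810030O07Rik (adjusted p = 1.37e-05, 0.00141 and 1.56e-06, edgeR), beside 21.5% of all genes. For Syap1 and Shroom4 it was -0.46 ± 0.48 and -0.65 ± 0.34 and did not pass (adjusted p = 0.563 and 0.153, edgeR), with 3.23% of all genes called lower.

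**Figure D2:**
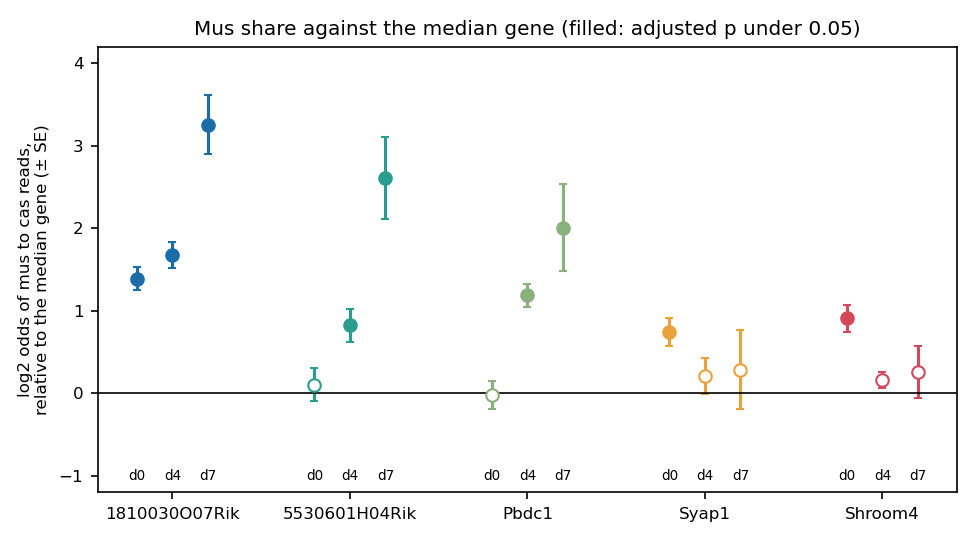
Log2 odds of mus to cas reads relative to the median gene of the library (vertical axis, ± SE from edgeR's model, 2 libraries per day) for each gene at day 0, day 4 and day 7 (d0, d4, d7). Filled points passed at an adjusted p under 0.05. 1810030O07Rik rises from 1.39 to 3.26, 5530601H04Rik and Pbdc1 start at 0.11 and -0.02 and end at 2.61 and 2.01, and Syap1 and Shroom4 start above 0 and end at 0.29 and 0.26 without passing.

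After day 4, 4 of 5 genes lost more mus share, beside 68.3% of all genes, and none gained (1.08%). The log2 odds changes were -2.34 ± 0.44 (SE) for Syap1, -2.33 ± 0.27 for Shroom4, -1.62 ± 0.42 for Pbdc1 and -0.86 ± 0.32 for 1810030O07Rik, with adjusted p between 5.5e-17 and 0.0130 in edgeR. The call of 1810030O07Rik was lost in DESeq2 (-0.87, adjusted p = 0.0596) and when day 4 replicate 1 was left out (-0.83, 0.0624). Leaving out day 7 replicate 2 gave -0.53 ± 0.42 with an adjusted p of 0.259, the highest of the alternatives in edgeR that gave a fall, and leaving out day 7 replicate 1 gave -1.24 ± 0.44 with 0.0102, the lowest. 5530601H04Rik changed by -0.65 ± 0.44, which did not pass (adjusted p = 0.187, edgeR). The shares of the day 4 and day 7 libraries did not overlap for either gene. Their Wilson intervals overlapped for 5530601H04Rik, and for 1810030O07Rik they overlapped with day 7 replicate 1 but not with replicate 2, whose interval ended at 36.8% below the 38.4% and 37.2% at which the day 4 intervals began. Relative to the median gene, 2 of 5 genes moved up after day 4, 5530601H04Rik by 1.78 ± 0.50 and 1810030O07Rik by 1.58 ± 0.35 (adjusted p = 0.0030 and 9.06e-05, edgeR), beside 18.8% of all genes, and none moved down (1.34%).

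Other escape genes give the frame for these values. Of 11 further genes on the escape list, 8 had more mus reads than the median gene at day 7, beside 21.5% of all genes. Of the list 1, the ubiquitin ligase gene Mid1, had fewer, beside 5.11% of all genes. Mid1 was already below the median gene at day 0, with 18.4% ± 1.71 mus reads. The list ranged from 1.22% ± 1.72 mus reads at the noncoding locus 4933407K13Rik to 99.8% ± 0.120 at Xist, with a median member of 24.8% ± 2.21. The median of the 5 genes was 14.5% ± 0.297, and that of all genes 4.35% ± 0.374. Relative to the median gene, the median log2 odds at day 7 were 2.86 for the 11 escape genes, 2.01 for the 5 genes and 0.00 for all genes.

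The genes on either side were read to see how far along the chromosome a high mus share reached. The pair Pbdc1 and 5530601H04Rik stood between genes with very few mus reads at day 7. Magee1, a melanoma antigen family gene that starts 3.29 kb beyond the end of Pbdc1, had 0 of 60 reads, for which 3 reads, the limit set by a count of 0, would be 5.0%, and 2 of 124. Its Wilson intervals, which set a slightly higher limit, ended at 6.02% and 5.69% and lay below those of Pbdc1, which began at 8.01% and 7.25%, and those of 5530601H04Rik, which began at 12.6% and 11.7%. On the other side Zdhhc15, a palmitoyltransferase gene 366 kb away, had 0 of 75 reads, for which the same limit is 4.0%, and 2 of 104. Atrx, the next measured gene beyond Magee1, had 6.52% ± 2.89, and its interval in replicate 2 overlapped those of the pair. At day 0 the genes next to the pair had been read from both alleles, Magee1 with 50.6% ± 1.44 and Zdhhc15 with 59.9% ± 1.99 mus reads.

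1810030O07Rik was also higher than the genes next to it. Med14, a subunit gene of the Mediator complex 1.7 kb away, had 14 of 184 and 14 of 183 mus reads at day 7, with intervals ending at 12.4% in both libraries, below the intervals of 1810030O07Rik. Atp6ap2, an accessory gene of the vacuolar proton pump 37.8 kb away on the other side, had 7.87% ± 0.752, with intervals that ended at 17.6% and 18.4% and so reached into that of 1810030O07Rik in replicate 2. At day 0 Med14 had 47.1% ± 3.85 and Atp6ap2 60.0% ± 0.958.

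Syap1 and Shroom4 lay close to the genes next to them. These differences between neighbours were described by their intervals and not tested. Ctps2, a CTP synthase gene 12.8 kb from Syap1, had 4.58% ± 0.118 mus reads at day 7 beside 5.36% ± 0.902 for Syap1, and the intervals overlapped. Dgkk, a diacylglycerol kinase gene 142 kb from Shroom4, had 2.87% ± 1.88 beside 5.27% ± 0.116, again with overlapping intervals. Clcn5, a chloride transporter gene 516 kb away on the same side, had 3.11% ± 2.49, and its interval ended at 2.90% in replicate 1, just below the 2.97% at which that of Shroom4 began, while the intervals overlapped in replicate 2. Other neighbours of these genes, AU022751, Ap1s2, Rbbp7 and Txlng, had a mean of at most 20 reads at day 7, too few for a comparison.

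**Figure D3:**
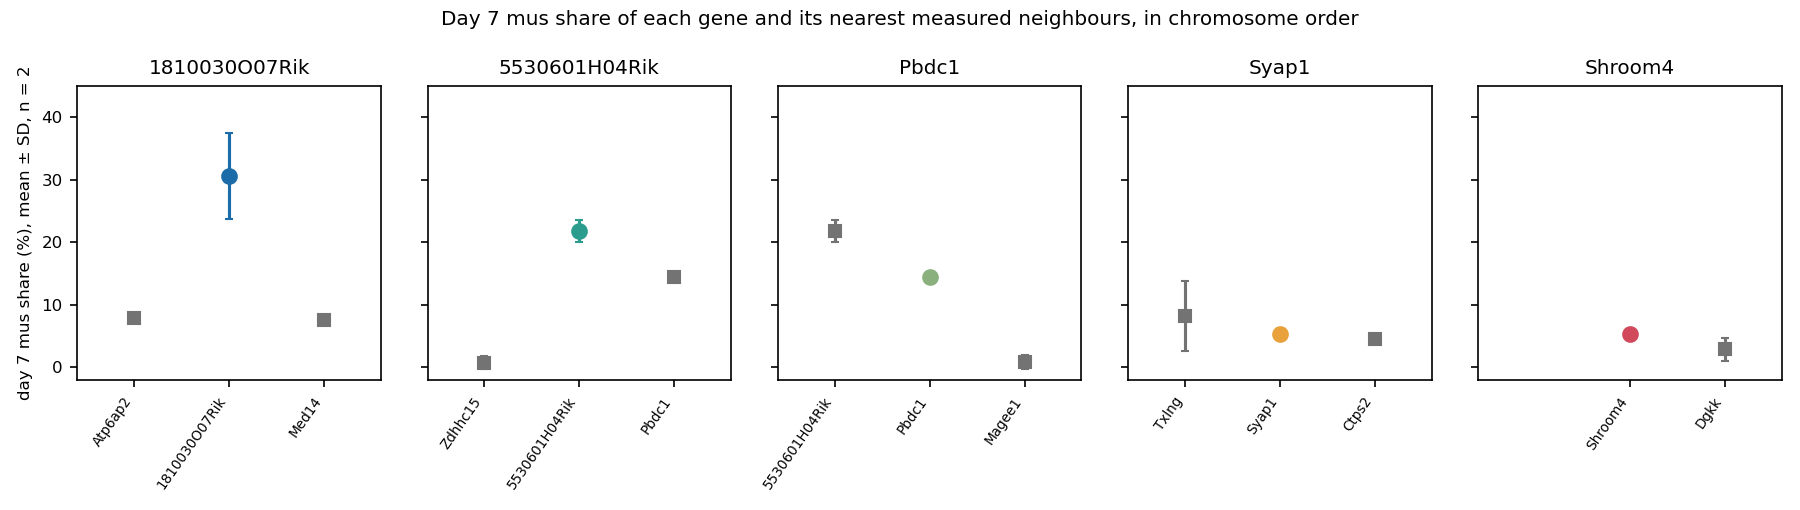
Day 7 mus share (percent, mean ± SD of 2 libraries) of each gene (coloured circle) and of the nearest measured gene on each side, where it had a mean of at least 10 reads (grey squares), in their order along chromosome X and not to scale of distance. 1810030O07Rik at 30.6% and the pair 5530601H04Rik and Pbdc1 at 21.8% and 14.5%, each shown as a square beside the other, stand above the remaining squares of their panels, which reach at most 7.87%, whereas Syap1 and Shroom4 lie close to their neighbours.

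Total expression was given as TPM, a measure of transcript abundance, which is scaled for gene length and can be compared between genes. In such bulk samples fewer cells with a gene's RNA and less RNA per cell cannot be told apart. Pbdc1 had the highest level at every day, with 145 and 108 TPM before differentiation, 86.4 and 88.9 on day 4, and 53.6 and 52.8 on day 7. 1810030O07Rik had 67.4 and 69.3 TPM at day 0, 42.9 and 44.5 at day 4, and 29.6 and 29.3 at day 7. In TPM both stepped down at each day, without overlap between days. For Pbdc1 the direction from day 0 to day 4 turned on allele-specific reads, as given below.

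5530601H04Rik was the lowest of the 5 genes at day 4 and day 7, with 14.8 and 13.8 TPM at day 0, 16.2 and 16.8 at day 4, and 9.14 and 9.02 at day 7. Syap1 had 40.4 and 32.8 TPM at day 0, 31.5 and 30.5 at day 4, and 32.2 and 32.3 at day 7, a course that was less level on allele-specific reads, as given below. Shroom4 was the one gene of the 5 whose TPM was higher on both later days than on day 0, with 12.8 and 13.5 TPM at day 0, 37.7 and 39.7 at day 4, and 29.7 and 29.3 at day 7. At day 7 the mean levels of Syap1 (32.3 ± 0.0630), Shroom4 (29.5 ± 0.287) and 1810030O07Rik (29.4 ± 0.216) were close, and those of Shroom4 and 1810030O07Rik did not differ beyond their spread.

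On the log2(TPM + 1) scale, 3 of 5 genes were lower at day 7 than at day 0, beside 54.0% of all genes, and Shroom4 was higher, beside 30.9%. Pbdc1 changed by -1.22 ± 0.12 (SE), 1810030O07Rik by -1.19 ± 0.05 and 5530601H04Rik by -0.60 ± 0.07, against -0.37 for the median gene (adjusted p = 4.48e-05, 4.23e-07 and 9.56e-05, limma). Shroom4 rose by 1.11 ± 0.06 (adjusted p = 1.16e-06, limma). Syap1 changed by -0.17 ± 0.10 and did not pass (adjusted p = 0.134, limma), although it did without day 0 replicate 2 (-0.31, 0.00176, the lowest over its alternatives), and without day 0 replicate 1 it was -0.024 (0.540, the highest).

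From day 0 to day 4, Shroom4 rose by 1.49 ± 0.06 on the log2(TPM + 1) scale, and 1810030O07Rik changed by -0.63 ± 0.05 and Pbdc1 by -0.51 ± 0.12 (adjusted p = 6.35e-07, 2.73e-05 and 0.00686, limma). The call of Pbdc1 was lost without day 4 replicate 1 (adjusted p = 0.0558, limma) and on allele-specific reads, where the direction turned, as given below. Its value without day 0 replicate 1 was -0.30. Among the TPM alternatives its adjusted p in limma ran from 1.08e-09 to 0.0558. 5530601H04Rik rose by 0.20 ± 0.07 (adjusted p = 0.0319, limma), a call lost with the replicate block (0.0802), without day 4 replicate 2 (0.0849), without day 7 replicate 1 or 2 (0.153 each) and with the day 7 pair as 1 library (0.153), within a range of 0.00853 to 0.153 among the TPM alternatives. Syap1, at -0.23 ± 0.10, did not pass (adjusted p = 0.0595, limma), but it did with the replicate block (0.0159) and, at -0.37, without day 0 replicate 2 (0.00127), while without day 0 replicate 1 it was -0.081 (0.0933). On allele-specific reads it fell by 0.74 ± 0.16 (adjusted p = 0.000769, edgeR). The counts at day 4 were thus 2 of 5 lower, beside 40.6% of all genes, and 2 of 5 higher, beside 41.4%. From day 4 to day 7, 4 of 5 genes fell, beside 60.5% of all genes, and none rose (25.5%), with changes between -0.80 ± 0.07 at 5530601H04Rik and -0.38 ± 0.06 at Shroom4 and -0.50 for the median gene. On allele-specific reads the calls of 1810030O07Rik (-0.26 ± 0.15, adjusted p = 0.128) and Shroom4 (-0.05 ± 0.12, 0.710) were lost and Syap1 was higher at day 7 (0.95 ± 0.17, 9.89e-05), by edgeR. The background also depended on the measure, since those reads called 147 genes lower and 141 higher, with a median change of -0.017, where TPM called 225 and 95. The reads were scaled within the 372 X-linked genes, so their changes are relative to these genes, and TPM were not scaled in this way. Sizes and calls by reads and by TPM are therefore not on a like scale.

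The allele-specific reads gave another view of total expression, and at day 4 they differed from the TPM in direction for 2 genes. Pbdc1 had 170.5 and 199 allele-specific reads at day 0 and 333 and 323 at day 4, and edgeR on such reads with TMM scaling gave a log2 change of 0.27 ± 0.13 (adjusted p = 0.0688, edgeR) where TPM gave -0.51. For 5530601H04Rik the reads gave -0.23 ± 0.15 (adjusted p = 0.165, edgeR) where TPM gave 0.20. The directions of Pbdc1 and 5530601H04Rik from day 0 to day 4 therefore depended on the measure. The falls of Pbdc1, 1810030O07Rik and 5530601H04Rik and the rise of Shroom4 from day 0 to day 7 had the same direction and passed in both. In the deposited log TPM the difference between the day 7 libraries was a fixed combination of the differences at day 0 and day 4, with a residual SD below 1e-10, so the spread at day 7 is not independent, and the limma p-values above may be too low.

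Expression was divided by the mus share to give a cas and a mus part in TPM, as a description without a test. The mus part shrank at all 5 genes between day 0 and day 7, whereas the cas part behaved differently from gene to gene. In Shroom4 the mus part went from 8.36 ± 0.570 TPM to 8.35 ± 0.0619 at day 4 and 1.55 ± 0.0493 at day 7, while the cas part went from 4.79 ± 0.139 to 30.3 ± 1.45 and 27.9 ± 0.238. The rise of this gene was thus carried by the cas allele, whose day 7 mean was 5.83 times its day 0 mean. In Syap1 the mus part went from 22.3 ± 4.13 to 1.73 ± 0.288 TPM and the cas part from 14.3 ± 1.18 to 30.6 ± 0.351, 2.14 times as much, so that the alleles took opposite courses under a total TPM whose change did not pass.

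In 1810030O07Rik the mus part went from 48.7 ± 0.688 TPM at day 0 to 19.2 ± 0.118 at day 4 and 9.03 ± 2.09 at day 7. Its cas part was 19.7 ± 2.04 TPM before differentiation and 20.4 ± 1.87 on day 7, a difference smaller than the spread, but 24.5 ± 0.999 on day 4. In 5530601H04Rik the mus part went from 7.14 ± 0.802 to 5.03 ± 0.647 and 1.98 ± 0.176. Its cas part was 7.15 ± 0.0900 at day 0 and 7.09 ± 0.0940 at day 7, again within the spread, but 11.5 ± 0.209 at day 4. Between day 0 and day 7 the lower totals of these genes were thus matched by their mus parts. In Pbdc1 both parts were lower at day 7, the mus part at 7.71 ± 0.239 after 61.1 ± 16.6 TPM and the cas part at 45.5 ± 0.320 after 65.4 ± 9.81.

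**Figure D4:**
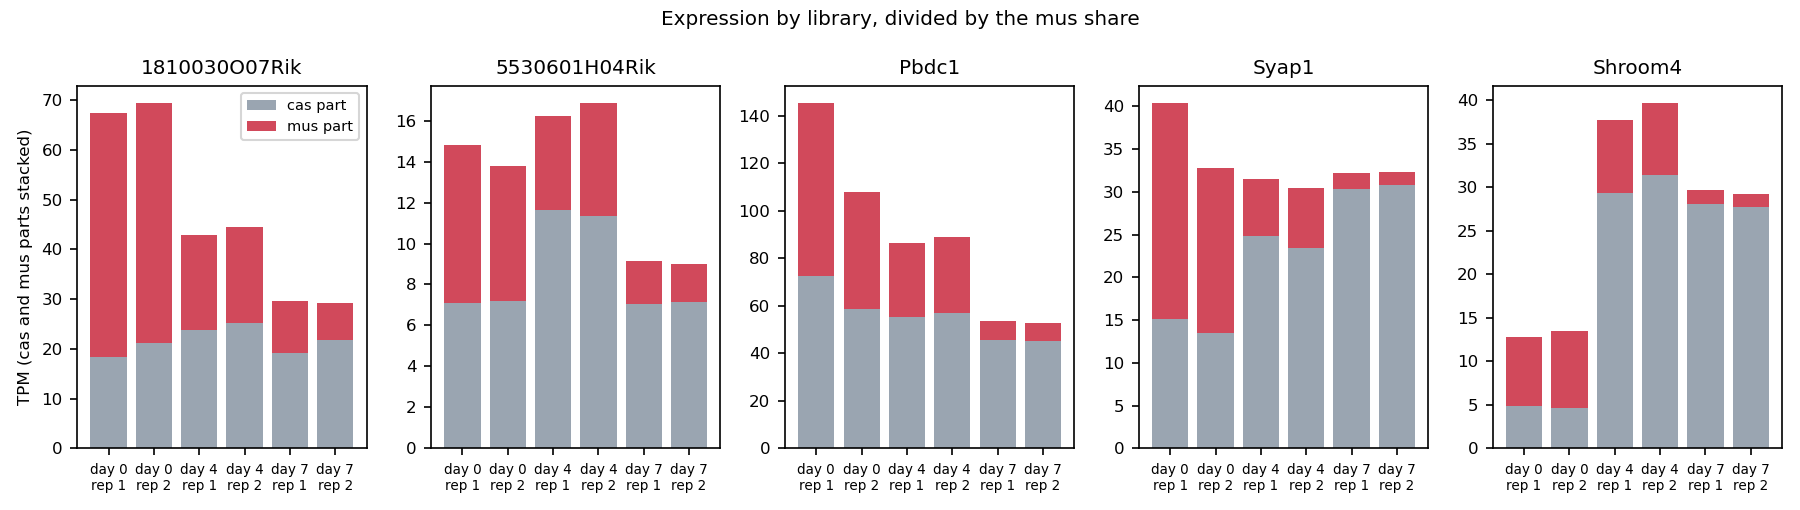
Expression (TPM, vertical axis, a scale of its own for each gene) in the 6 libraries, with the cas part in grey and the mus part stacked on it in red; each bar is 1 library. The red part is smaller at day 7 than at day 0 in every gene, while the grey part grows in Syap1 and Shroom4 and stays near 20 TPM in 1810030O07Rik and near 7 TPM in 5530601H04Rik at day 0 and day 7.

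The genes with the closest course of mus share over the 6 libraries, by root mean square difference, were Idh3g and Uba1 for Pbdc1, at 2.59 and 3.07 percentage points. For 5530601H04Rik they were Porcn and Kdm5c, at 3.75 and 4.16 points, and for 1810030O07Rik they were Plp2 and Utp14a, at 9.40 and 9.73 points. No gene thus followed 1810030O07Rik as closely as others were followed. Syap1 was closest to Zfp185 and Tmem47, at 2.01 and 2.32 points, and Shroom4 to Sat1 and Smim10l2a, at 2.53 and 2.57 points. Of these genes, Kdm5c and Utp14a were on the escape list, Plp2 on the fibroblast list and Zfp185 on the pluripotency list. By total expression, the closest courses of log2(TPM + 1) were those of Phf8 and Nono for Pbdc1, Xiap and Mbtps2 for 5530601H04Rik, Nr0b1 and Tsix for 1810030O07Rik, and Smc1a and Rbmx2 for Syap1, while Xist was among the closest to Shroom4. Pearson's r across the 6 libraries ran from 0.859 for Rbmx2 to 0.999 for Xiap, as a description only, since the libraries came from 3 days. It compares the shape of a course and not its size. From day 0 to day 7 Nr0b1 went from 324 to 13.8 TPM and 1810030O07Rik from 68.4 to 29.4, and Xist from 11.3 to 58.6 and Shroom4 from 13.2 to 29.5.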

How the data were processed

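Libraries were prepared from ribosome-depleted RNA after TRIzol extraction, using a directional module for the second strand, per the labels' protocols. The tools limma, edgeR, HOMER 4.10, STAR and Trim Galore 0.4.1, and the builds GRCm38 and mm10, are named in the submitters' processing notes. The role of each, and whether strand was used in counting, is not given in the sources used here. The authors deposited estimated counts of cas and mus reads per gene and library in steps of 0.5 (41.4% were not whole), the fraction of each allele, which equalled the shares recomputed from the reads within 1e-09, and TPM. All 372 symbols lay on chromosome X of GENCODE M21.

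Genes needed a mean of at least 10 allele-specific reads and 1 TPM, and all 372 had both. For allele share, rounded cas and mus reads of the 6 libraries were fitted in edgeR (4.0.16, quasi-likelihood) with library terms and an allele term per day. Tests against the median gene added an offset for each library's median mus share. There were 3 residual degrees of freedom and the common dispersion was 0.00101. Because edgeR estimated an infinite prior, every gene was tested with 1 spread common to all genes. For expression, log2(TPM + 1) entered limma (3.58.1) with a mean-variance trend. P-values were adjusted by Benjamini-Hochberg over all 372 genes and called at 0.05. Wilson intervals (95%) used rounded reads and cover counting error only, as do limits for a count of 0 (3 reads). R 4.3.3, DESeq2 1.42.0, scipy 1.17.1, pandas 2.3.3 and matplotlib 3.10.9 were used. On simulated data over 372 genes, the day 7 against day 0 share model called 96.3% of genes changed by 2 in log2 odds. It called 71.0% of those changed by 1 and 2.33% of unchanged genes. These changes were smaller in size than the measured median of -4.22 over all genes. The rate of calls at mus reads as few as those of Pbdc1 at day 7 was not tested.

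The 5 genes, the lists and the tests were chosen with earlier results of these data known. Named genes were the 5 genes, the list of 11 other escape genes with its highest and lowest member, up to 2 measured genes on each side, and the 2 genes closest in mus share and in expression. Some genes that this rule names are not reported here. Alternatives were other tests, read and TPM minimums, pseudocounts, a replicate block, the median gene as reference, total allele-specific reads, the day 7 pair as 1 library and leaving out each library. Keeping reads unrounded was added after seeing the data. Of the lists looked up, 6 of 8 X-linked differentiation genes were measured, with summed expression of 1412 to 1512 TPM at day 0, 919 to 947 at day 4 and 1072 to 1073 at day 7. Replicates were compared before averaging: their reads per gene differed beyond counting noise on each day (chi-square over degrees of freedom 3.96 for day 0, 1.79 for day 4, 2.69 for day 7), so none was counted as a repeat.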

Additional observations from a re-analysis of the deposited data

How the results depend on the processing

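Of the values of single genes under the alternatives, 570 had the direction and call of the reported value, 19 lost the call, 5 gained it and 21 changed sign. Taking the median gene as reference turned the sign for 3 of 5 genes from day 0 to day 7, with log2 odds changes of 2.03 for Pbdc1, 2.50 for 5530601H04Rik and 1.87 for 1810030O07Rik, and ended the calls of Syap1 (-0.46) and Shroom4 (-0.65). From day 0 to day 4 it gave 1.21 for Pbdc1, 0.72 for 5530601H04Rik and 0.29 for 1810030O07Rik, and from day 4 to day 7 0.82 for Pbdc1, 1.78 for 5530601H04Rik, 1.58 for 1810030O07Rik, 0.075 for Syap1 and 0.098 for Shroom4. The median gene itself fell, so a positive value here means that the log2 odds of a gene fell less than those of the median gene. With that reference 3, 3 and 2 of the 5 genes were called in the comparisons of day 4 with day 0, day 7 with day 0 and day 7 with day 4, and 152, 92 and 75 of all genes.

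At day 0 against an equal share, 108 genes were called in edgeR, 40 in DESeq2 and 45 to 111 without 1 library; against the median gene 104 were called, 60 in DESeq2 and 36 to 110 without 1 library. Values near 0 changed sign. For 5530601H04Rik the log2 odds at day 0 were -0.011 in limma, -0.010 with reads unrounded, an alternative chosen after seeing the data, and -0.00039 under the replicate block. Without 1 library they ran from -0.12 to 0.13 and, against the median gene, from -0.018 to 0.24. For Pbdc1 these ranges were -0.25 to 0.017 and -0.14 to 0.13. The cause was not tested.

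Total allele-specific reads in place of TPM turned the sign of Pbdc1 (0.27) and 5530601H04Rik (-0.23) at day 4 and of Syap1 at day 7 against day 0 (0.22). They called 145 genes lower and 136 higher at day 7 against day 0, beside 201 and 115 by TPM. The median gene changed by -0.11 in place of -0.37. The reads were scaled within the 372 X-linked genes, which takes out most of a change shared by them, and TPM were not. How much of each difference came from this scaling was not tested. The reads also called Syap1 lower at day 4 than day 0 (-0.74) and higher at day 7 than day 4 (0.95). They did not call 1810030O07Rik (-0.26) or Shroom4 (-0.05) from day 4 to day 7.

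The labels link same-numbered libraries by number alone. Correlations of their deviations lay between -0.128 and 0.0608 in allele share. In log2(TPM + 1) they were -0.013 for day 0 with day 4, 0.127 for day 0 with day 7 and -0.895 for day 4 with day 7. The last was strong, and with the fixed combination of TPM differences given above, same-numbered libraries were not independent in TPM. Under the replicate block no call of allele share of the 5 genes changed; the rise of 5530601H04Rik in TPM at day 4 (0.20, adjusted p = 0.0802, limma) was lost and the change of Syap1 (-0.23, 0.0159, limma) gained. Leaving out 1 library kept a fall in mus share at all 5 genes between each pair of days. The smallest log2 odds change was -0.47, for 5530601H04Rik from day 4 to day 7. The median over all genes also fell in each of these fits, so this is not particular to the 5 genes. Calls lost without 1 library are given above for each gene. Depth limited day 7 most, where Pbdc1 had 7.5 and 5.5 mus reads.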
